A study of Mus musculus with 2 samples.

Results

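The genes described here encode the enzymes that trim the ends of newly made fibrillar collagens, together with the glycoproteins that speed this trimming. They are the C-proteinases of the tolloid group (Bmp1, Tll1 and Tll2), the C-proteinase enhancers (Pcolce and Pcolce2) and the N-proteinases (Adamts2, Adamts3 and Adamts14). A member was taken as the expression row whose only gene symbol in the array's annotation was one of these 8 names, and the row with the highest mean was kept per gene. This gave 7 of the 8 genes, each with a single row, out of 30142 named genes in the whole data set. Adamts2 was not matched to a row and has no value here. The group was put together, and its members chosen by knockout and wild-type values of these arrays, because Tll1 was over 2-fold lower in the knockout while collagen genes were higher. The differences below therefore describe these arrays and carry no test.

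Fibrillar collagens are secreted as procollagens with a propeptide at each end, and removal of the C-propeptide lets the molecules assemble into fibrils. Tolloid proteinases are astacin metalloproteases that make this cut, and they also cleave chordin, which frees bone morphogenetic proteins (BMPs), and activate lysyl oxidase, which crosslinks collagen. PCPE proteins, the products of Pcolce and Pcolce2, bind the procollagen C-propeptide region and raise the rate of the cut, while ADAMTS enzymes of the N-proteinase type remove the N-propeptide. Fibroblast-like cells of connective tissue, the stromal cells of fat among them, make most of this machinery.

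Total RNA came from adipose-derived stromal cells, fibroblast-like progenitors grown in culture from the inguinal fat pad, a subcutaneous depot. The wild-type group and the Wisp1 knockout group had 1 array each, and both were C57BL/6J mice 6 to 10 weeks old whose cells grew in DMEM with 15% fetal bovine serum. In the knockout, exons 1 to 5 of Wisp1 had been floxed and removed in every tissue by mating to a mouse labelled Cre-neo, and the wild-type mice are not described further. Wisp1 (now Ccn4) encodes a secreted matricellular protein, and the study asked what it does to cartilage formation in heterotopic ossification, bone growth in soft tissue. How many mice or cultures each RNA came from is not given in the sources used here. With 1 array per genotype there were no replicates, no spread and no p-value, so each difference (knockout minus wild type, log2) compares 2 arrays rather than genotypes. Probes of different genes respond differently, so a level set beside those of other genes (the filter on level, a percentile on an array or a distance between genes) describes array signal and not transcript amounts.

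Wisp1 read 7.79 on the wild-type array and 5.40 on the knockout array, lower in the sample labelled as the knockout. The knockout value was 19.0% of the wild-type signal and lay at percentile 60.0 of named genes on its array. It thus stayed above the median level of named genes, 4.65, although exons of the gene had been removed. Why signal remained was not tested. Of 10 stromal progenitor markers 8 were named on the array, with a mean level of 7.69 in wild-type cells and 7.80 in knockout cells, and the progenitor markers Dpp4 (2.79 on both arrays) and Nt5e (3.27 and 3.28) were dim. Markers of other cells differed as well. Of 8 macrophage markers 6 were higher, where 47.0% of all named genes were. The 4 that passed the filter on level described below were all higher, where 56.9% of genes passing it were. The median difference of those 4 markers was 0.74. The lysozyme gene Lyz2 was past 2-fold (6.14 and 7.43, 1.29), and Fcer1g (0.90), Cd68 (0.58) and Tyrobp (0.51) followed. Tyrobp (4.57 and 5.09) lay below the median level on the wild-type array and passed only through its knockout value. The count and median of the markers that passed thus depend in part on the filter. The macrophage markers Csf1r (4.61 and 4.62, 0.01), Adgre1 (3.33 and 3.25, -0.08) and Itgam (3.69 and 3.78, 0.09) did not pass the filter and were nearly level. The mean level over all 8 macrophage markers was 4.51 on the wild-type array and 4.92 on the knockout array. The leukocyte marker Ptprc was at 2.86 on both. Over 6 pericyte and smooth muscle markers mean levels were 7.73 and 7.41, with 5 lower and 1 higher, where 47.4% of all named genes were lower. All 5 that passed the filter were lower, where 39.9% of genes passing it were. Mcam (-0.69) and Myh11 (-0.51) were the lowest. Over 6 adipocyte markers mean levels were 4.67 and 4.35, with 4 lower, where 47.4% of all named genes were. The adipocyte hormone gene Retn was past 2-fold (4.90 and 3.81, -1.08) but did not pass the filter. The 2 adipocyte markers that passed it, Plin1 (0.04) and Fabp4 (-0.11), went in opposite directions. Over 6 endothelial markers mean levels were 4.01 and 4.27. Of these 4 were higher and 2 lower, where 47.0% and 47.4% of all named genes were. Cdh5 (3.81 and 4.62, 0.80) and Emcn (3.24 and 4.04, 0.80) were higher but did not pass the filter. Tek (-0.14), the 1 that passed it, was lower. Over 5 lymphocyte markers mean levels were 3.59 and 3.59. Over 6 epithelial and mesothelial markers they were 4.24 and 4.17. The part of these shifts in the results below was not tested, and in bulk RNA fewer cells of a type and less RNA per cell cannot be told apart.

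The promoters of Tll1, the member past 2-fold, and of its paralogue Tll2, which is not, are shown so that their sequences can be set side by side. Each runs from 250 bases before to 50 bases after the annotated start, 5′ to 3′ on the gene's strand, from RefSeq on GRCm38.p6. Capitals mark matches, on either strand, to 6 motifs: the core promoter element TATAAA, the element CCAAT known as a CAAT box, the SP1-type element GGGCGG, the TEAD core GGAATG, the AP-1 site TGANTCA and the TCF/LEF core CTTTGAT. No match overlapped a match to another motif in these 2 promoters.
Tll1, chr8:64205959-64206258, minus strand: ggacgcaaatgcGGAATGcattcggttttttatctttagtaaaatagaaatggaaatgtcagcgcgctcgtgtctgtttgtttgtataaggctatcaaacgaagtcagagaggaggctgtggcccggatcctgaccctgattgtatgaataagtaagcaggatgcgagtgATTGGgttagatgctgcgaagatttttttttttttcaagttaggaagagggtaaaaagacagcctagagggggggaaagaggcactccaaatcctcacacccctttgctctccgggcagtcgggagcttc
Tll2, chr19:41206725-41207024, minus strand: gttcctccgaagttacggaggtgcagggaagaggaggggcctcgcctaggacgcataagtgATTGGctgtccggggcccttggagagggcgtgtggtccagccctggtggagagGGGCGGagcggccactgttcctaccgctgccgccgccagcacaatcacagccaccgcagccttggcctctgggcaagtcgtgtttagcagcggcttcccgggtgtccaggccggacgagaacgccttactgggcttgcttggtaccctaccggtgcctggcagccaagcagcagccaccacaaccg

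The Tll1 promoter held 46.3% G and C and 12 CpG dinucleotides, and the Tll2 promoter 65.7% and 20. The median over 32851 promoters of the same length was 52.7% and 7. Tll1 had a CCAAT match on the minus strand at -80 to -76 from the start and a GGAATG match at -238 to -233. Tll2 had a CCAAT match at -189 to -185 and a GGGCGG match at -136 to -131. As background, 37.4% of all these promoters held CCAAT, 35.7% GGGCGG, 14.7% GGAATG, 13.6% TATAAA, 7.81% TGANTCA and 3.73% CTTTGAT, so the motifs found are common. Among the 7 listed genes with a promoter in the table Tll1 was the lowest in G and C content, and the N-proteinase genes Adamts2 (77.3%), Adamts3 (77.3%) and Adamts14 (76.7%) were the highest. Pcolce (59.3%) and Pcolce2 (63.7%) lay between them. Apart from the Tll1 promoter, each of these 7 held at least 1 GGGCGG match, with 7 in Adamts14 and 5 in Adamts2. In Adamts14 a pair of them share a base, at -42 to -37 and -37 to -32. These are descriptions of letters and not of binding.

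Among the tolloid C-proteinases, Tll1 was lower on the knockout array and the other genes were slightly higher. Tll1 encodes tolloid-like 1, which cleaves procollagen and chordin and is needed for the heart septum to form. It read 5.97 on the wild-type array and 4.78 on the knockout array, a log2 difference of -1.19, or 2.28-fold lower, which leaves 43.9% of the wild-type signal. Only 7 of the 15072 named genes that passed the filter on level (a mean over both arrays no lower than the median of named genes, 4.65) had a lower difference. The wild-type value lay at percentile 67.3 of named genes on its array and the knockout value at percentile 51.9, close to that median, and RMA compresses differences of dim genes. Among the 3810 named genes whose mean lay within 0.5 of that of Tll1, the central 95% of differences ran from -0.32 to 0.37. Tll1 was chosen for its low difference, so its rank and its place outside this range follow from that choice.

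Bmp1 encodes the main procollagen C-proteinase of most tissues, in a short form and, by splicing, as mammalian tolloid. It read 9.74 in wild type and 9.95 in the knockout, a log2 difference of 0.20 or 1.15-fold, inside the central 95% of the 596 named genes of like level (-0.38 to 0.41). In that band 101 genes (16.9%) were as much or more higher. The deposited table gives a single value for Bmp1, so its splice forms were not separated.

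Tll2 encodes tolloid-like 2, which acts on the propeptide of the muscle growth inhibitor myostatin and has little activity on procollagen. It read 4.23 in wild type and 4.31 in the knockout, a log2 difference of 0.08, and it lay below the median level on both arrays. Within the tolloid group the difference of Tll1 minus that of Bmp1 was -1.39 and minus that of Tll2 was -1.26. Both gaps follow from the choice of Tll1 for its low difference. The difference of Bmp1 minus that of Tll2 was 0.13.

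**Figure D1:**
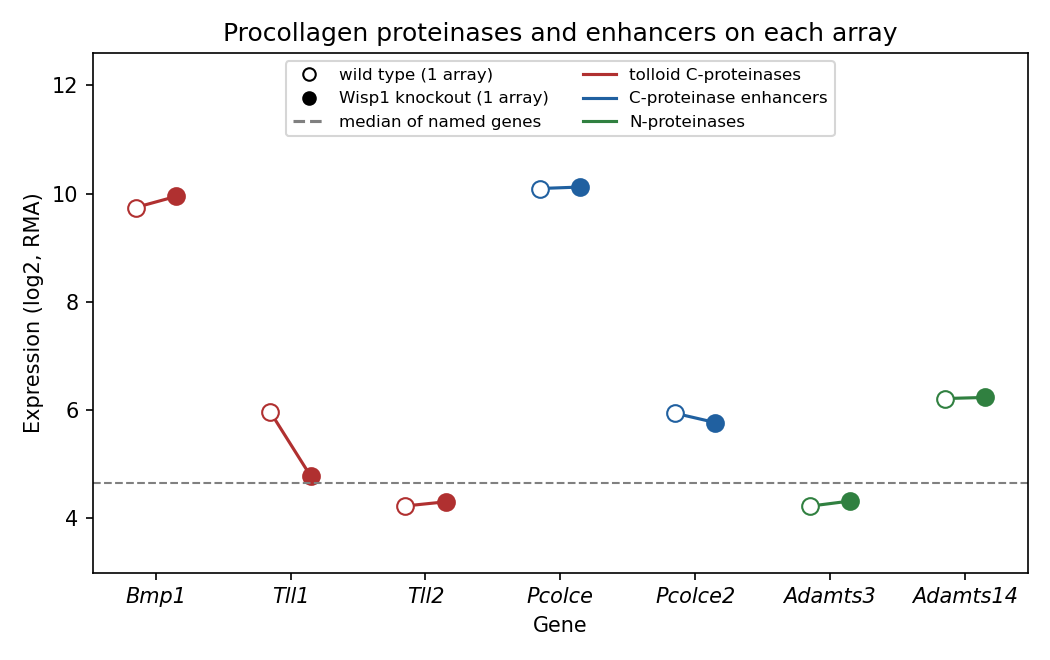
Expression (log2, RMA) of the 7 named genes on the wild-type array (open circles) and the Wisp1 knockout array (filled circles), 1 array each with no error bars, coloured by role; the dashed line is the median of named genes, 4.65. Tll1 is at 5.97 and 4.78, while the lines of the other genes are close to level.

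The enhancers differed little. Pcolce encodes PCPE-1, the enhancer found in most collagen-rich tissues. It read 10.10 in wild type and 10.12 in the knockout, a log2 difference of 0.03 whose sign turned under quantile normalization (-0.0012). Pcolce2 encodes PCPE-2, which also takes part in lipoprotein metabolism. It read 5.94 in wild type and 5.77 in the knockout, a log2 difference of -0.17 or 1.13-fold lower. That was the lowest of the members after Tll1, and it was well short of the 2-fold limit that Tll1 passed. Of 3782 named genes of like level 325 (8.59%) were as low or lower, and the central 95% ran from -0.32 to 0.37.

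The N-proteinases with a value were nearly level. Adamts14 encodes an N-proteinase of procollagen type I. It read 6.22 in wild type and 6.24 in the knockout, a log2 difference of 0.02 that became -0.01 under quantile normalization and under loess centring. Adamts3 encodes the N-proteinase first described for cartilage collagen, and its product also activates the lymphatic growth factor VEGF-C. It read 4.23 in wild type and 4.32 in the knockout, a log2 difference of 0.10, and lay below the median level on both arrays. Of 4939 named genes of like level 984 (19.9%) were as much or more higher. Adamts2, the main N-proteinase of skin and the gene of dermatosparaxis, a fragile skin disorder, was not analysed here.

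**Figure D2:**
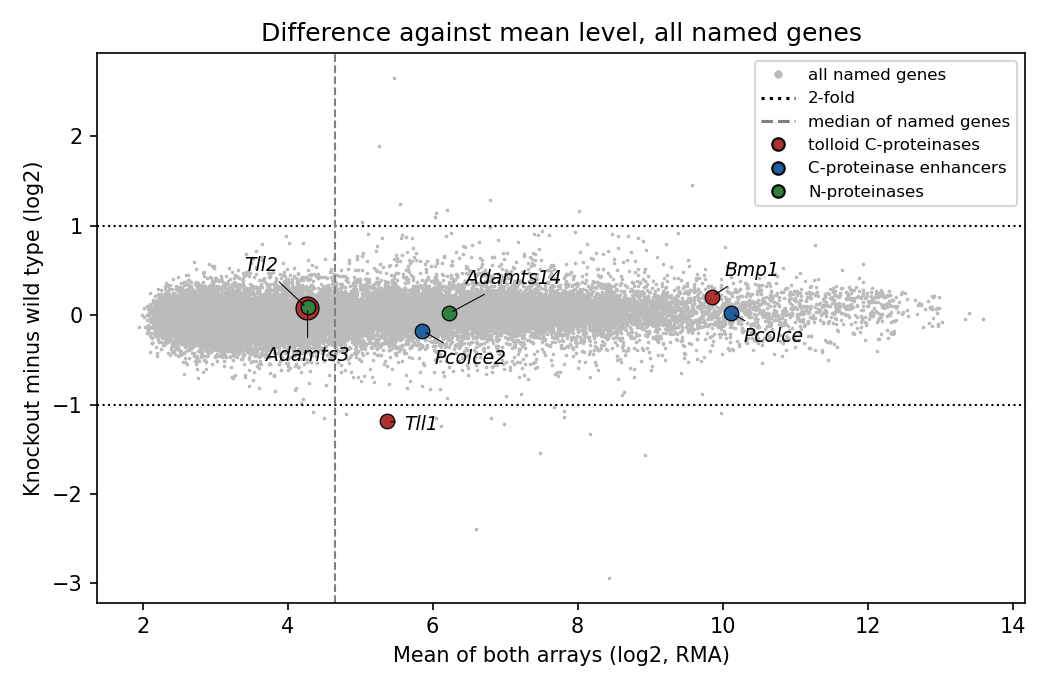
Knockout minus wild type (log2) against the mean of both arrays (log2, RMA) for all 30142 named genes (grey), with the 7 members coloured by role; dotted lines mark 2-fold and the dashed line the median of named genes, 4.65. Tll1 at -1.19 lies below nearly all grey points at its level, and the other 6 members, from -0.17 to 0.20, lie inside the grey band (Tll2, drawn larger, is behind Adamts3).

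Across the group, 5 of the 7 genes were higher on the knockout array and 2 lower, with a median difference of 0.03. Over all named genes 47.0% were higher, 47.4% lower and the median was 0. Of the 5 genes that passed the filter on mean level (Bmp1, Tll1, Pcolce, Pcolce2 and Adamts14), 3 were higher, where 56.9% of the 15072 genes tested were higher and 39.9% lower. Tll1 alone was at least 2-fold lower, where 0.0995% of genes tested were, and it was chosen for that. No member was at least 2-fold higher, where 0.0663% of genes tested were. With a 1.5-fold limit Tll1 was again the only member past it, where 0.464% of genes tested were lower and 0.717% higher by that much. Tll2 and Adamts3 did not pass the filter and were not past 2-fold either. Without Tll1, the 6 other genes spanned -0.17 to 0.20 with a median of 0.05.

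The substrates of these enzymes, the fibrillar procollagens, differed more than the enzymes other than Tll1. All 11 chains on the list were named and passed the filter, and 10 were higher, with a median of 0.33 and a range from -0.02 to 0.52. None reached 2-fold. Of the 15072 genes that passed the filter 56.9% were higher, with a median of 0.03. The higher collagens were part of why the group was chosen and are a description only. Col1a2 (10.57 in wild type, 11.10 in the knockout, 0.52) and Col1a1 (11.40 and 11.90, 0.50), the chains of type I collagen, had the highest differences. Col27a1 (6.43 and 6.50, 0.07) and Col11a2 (6.08 and 6.06, -0.02), both of cartilage, had the lowest.

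Set against the enzymes, the difference of Col1a1 lay 0.30 above that of Bmp1, 0.47 above that of Pcolce and 0.48 above that of Adamts14. Against Tll1 it lay 1.69 above, which follows from the choice of the group for a lower Tll1 and higher collagens. The higher collagens of that choice also enter the other gaps, so all are descriptions only. The chains of type V collagen, which starts fibrils and whose Col5a1 chain is itself a tolloid substrate, were named after their values were seen: Col5a1 read 8.63 and 9.02 (0.39), Col5a2 9.31 and 9.64 (0.33), and Col5a3 6.33 and 6.55 (0.23). Col24a1, a collagen of forming bone, read 5.18 and 5.46 (0.27) and was likewise named after its values were seen.

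Other tolloid substrates did not differ together. Of 19 listed, 17 were named on the array, with 11 higher and 6 lower and a median of 0.06. Over all named genes 47.0% were higher. Of the 12 substrates that passed the filter 8 were higher, where 56.9% of genes passing it were. Ogn, a small proteoglycan that tolloid enzymes process, read 8.92 in wild type and 9.84 in the knockout (0.92), the highest. Tgfbr3, the TGF-beta coreceptor betaglycan, read 9.12 and 9.54 (0.42). Ltbp1, which stores latent TGF-beta in the matrix, was the lowest at 6.62 and 6.11 (-0.51), followed by Cd109, a TGF-beta coreceptor, at 6.48 and 6.15 (-0.33).

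A few substrates were picked after their values were seen for their textbook link to the tolloid enzymes. Chrd, the BMP antagonist chordin, read 5.32 on both arrays. Lox, lysyl oxidase, read 12.04 and 12.12 (0.08), and Bgn, the proteoglycan biglycan, read 12.82 and 12.91 (0.09). These genes were nearly level while Tll1 was lower, but the arrays measure RNA and not the cleavage of these proteins.

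The proprotein convertases, which remove the prodomains of tolloid and ADAMTS enzymes, held 1 gene that stood apart from the rest. Pcsk5 read 5.97 in wild type and 6.68 in the knockout, a log2 difference of 0.71. Furin (7.33 and 7.39, 0.06), the most widely used convertase, Pcsk6 (6.36 and 6.40, 0.03) and Pcsk7 (6.33 and 6.28, -0.05) were nearly level. The median of the 4 genes was 0.05 and their mean 0.19. Without Pcsk5, a choice made after its value was seen, the median was 0.03 and the mean 0.01.

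Genes of proteins that bind or modulate these enzymes differed in both directions. Of 8 listed, 7 were named on the array, with 4 higher, 3 lower and a median of 0.25. Over all named genes 47.0% were higher and 47.4% lower. Of the 6 modulators that passed the filter 4 were higher, where 56.9% of genes passing it were. Sfrp2, a secreted Frizzled-related protein that binds tolloid enzymes, read 7.90 in wild type and 8.53 in the knockout (0.63). Postn, the matricellular protein periostin, which helps place the BMP1 enzyme in the matrix, read 11.65 and 12.23 (0.57). At the other end Timp3, a matrix-bound metalloprotease inhibitor that also blocks the ADAMTS2 enzyme, read 9.95 and 9.71 (-0.24), and Twsg1, which binds BMPs and chordin, read 9.16 and 9.06 (-0.11). Other members outside the naming rule, picked after their values were seen, were the scaffold gene Olfml3 (6.09 and 6.55, 0.46) and Fn1, fibronectin (12.40 and 12.65, 0.25).

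The partners of the N-proteinases outside collagen were nearly level. Vegfc, cleaved by the ADAMTS3 protein with the help of Ccbe1, read 6.15 on the wild-type array and 6.03 on the knockout array (-0.12), and Ccbe1 read 4.88 and 4.96 (0.08). Reln, the secreted protein reelin that N-proteinases also cut, read 3.31 and 3.26 (-0.06), and Flt4, the receptor of VEGF-C, had the identical value of 4.86 on both arrays. Identical values were found for 1703 of the 30142 named genes, with Adamts9, Dpp4 and Ptprc also among them. Such a tie is not read as an exact lack of change.

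**Figure D3:**
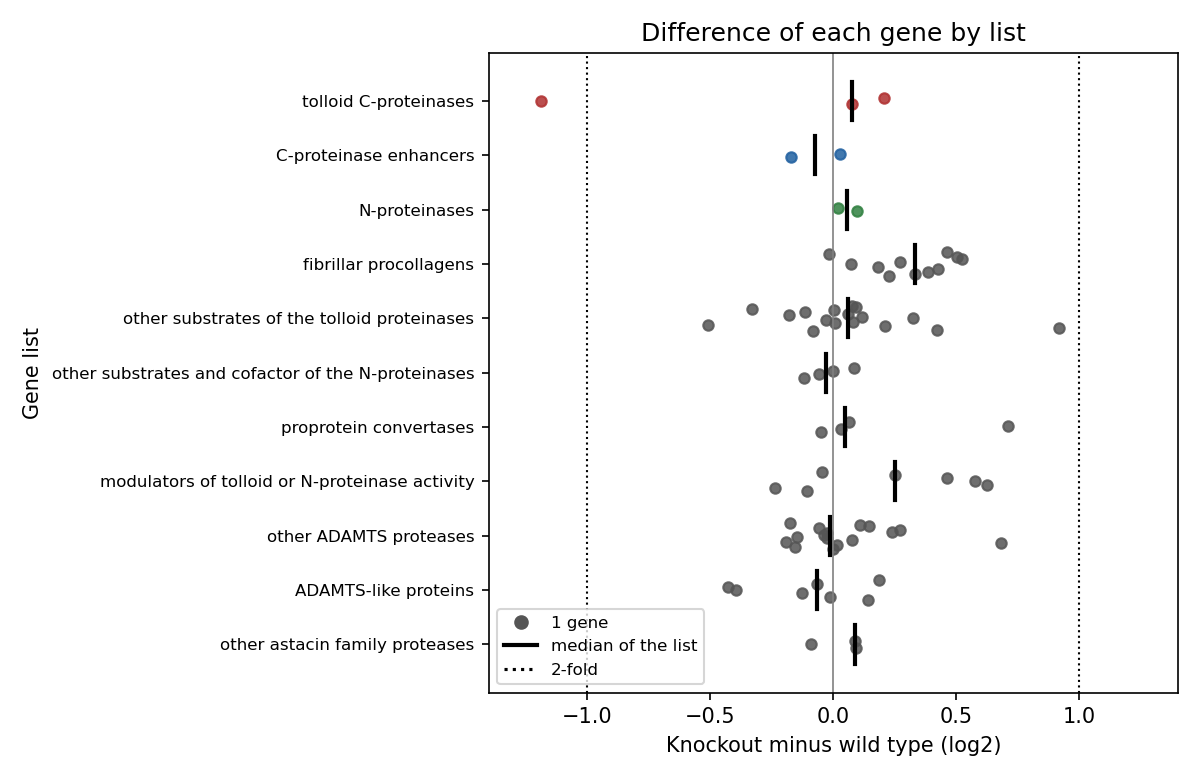
Knockout minus wild type (log2) for each gene (points) by list, with the list's median as a black bar and dotted lines at 2-fold; coloured points are the members and grey points the lists around them. Tll1 is the only point past 2-fold, and fibrillar procollagens have the highest median of the lists plotted, 0.33. Under quantile normalization (not plotted) the modulators had the higher median.

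Tll1 was also placed by its pattern over the 2 arrays. The nearest named genes, by straight-line distance between the pairs of log2 values, were C1ql3 at 0.30, Kcnab1 at 0.41, Mir7228 and Sytl2 at 0.43 and Vit at 0.45. C1ql3 read 5.78 on the wild-type array and 5.01 on the knockout array, and Vit 5.51 and 4.82. The 5 genes differed by -0.57 to -0.77, less than Tll1 in each case. Tll1 was chosen for its low difference, so the smaller differences of its neighbours follow from that choice. The distance sets levels of different probes side by side, and 2 arrays give no more than a rough likeness.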

How the data were processed

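The 2 samples were measured on 1 array each. The authors deposited log2 values per transcript cluster, made by RMA with Partek per the submitters' processing notes. Versions, the build of the array design and the arrays normalized together are not given in the sources used here. RMA equalizes the distributions of arrays, so a shift shared by most genes cannot be seen. The 65956 clusters ran from 1.88 to 13.62 (wild type, median 3.93) and from 1.74 to 13.65 (knockout, median 3.92). The number of arrays limits the precision.

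Clusters with 1 distinct symbol in the platform annotation (30604) were named, with symbols updated through Entrez IDs from the RefSeq table of GRCm38.p6 (22818 matched), and 2146 listing more than 1 symbol were not used. The cluster with the highest mean stood for a gene with several. Differences are knockout minus wild type with no further scaling. Counts used 2-fold and the median level of named genes, 4.65. Genes of like level had a mean within 0.5 of the member's. The naming rule took all members, Wisp1, list genes past 2-fold, the 2 highest and 2 lowest of each list, and the 5 genes nearest to Tll1 over both arrays. Cell type markers are outside this rule, and those named were chosen after their values were seen. Members, lists and motifs were chosen with earlier results of these data known. RefSeq promoters matched 7 of the 8 genes, Bmp1 being the exception. Alternatives were median centring, quantile normalization, loess centring (span 0.3), other rows per gene, other filters, 1.5-fold and the mean of a list. The procedure was tested on simulated data. Python 3.11.15 was used with pandas 2.3.3, numpy 2.4.6, matplotlib 3.10.9 and, for loess, statsmodels 0.14.6.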

Additional observations from a re-analysis of the deposited data

How the results depend on the processing

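With no replicates, a value was counted as moved when it shifted by 0.1 or more on the log2 scale, or a count when it changed by over 1.5 times, and as reversed when its sign turned. Of 129 values recomputed under the alternatives, 117 did neither, 4 moved and 8 reversed. The 117 include values that could not change. Each member had 1 row, so averaging rows could not alter its difference, and keeping rows with several symbols left it the same. The spread of the member differences given here thus comes from the 3 rescalings (median, quantile and loess). Tll1 ranged from -1.21 to -1.17, Bmp1 from 0.18 to 0.22 and Pcolce2 from -0.21 to -0.16. Under quantile normalization Pcolce was -0.0012 (and with it the median over the members, -0.0012) and Adamts14 -0.012, and under loess centring Adamts14 was -0.012. At 1.5-fold the named genes past the limit numbered 70 lower (0.464%) and 108 higher (0.717%), in place of 15 and 10. The mean of the convertases was 0.19, and the modulators that passed the filter had a median of 0.36, above the 0.33 of the fibrillar procollagens. Under quantile normalization the modulators (0.35) were also above the fibrillar procollagens (0.31). The median of the other ADAMTS genes, -0.01 as reported, was 0.0026 with arrays centred, 0.046 over members that passed the filter and 0.045 as a mean. The other astacins were at -0.040 with the mean over the rows of a gene, where a second row of Mep1b (3.30 and 3.13, -0.17) was averaged with the first (0.09), the only gene of that list with more than 1 row. Beyond that last value and the list summaries, the cause was not tested. No paired analysis was possible because each genotype has 1 array.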

Other observations

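Of 16 other ADAMTS proteases 7 were higher, 8 lower and 1 (Adamts9) identical on both arrays, with a median of -0.01 that turned sign under other settings. Over all named genes 47.0% were higher and 47.4% lower. Of the 10 that passed the filter 6 were higher and 3 lower, where 56.9% and 39.9% of genes passing it were. Adamts6, an ADAMTS protease of the developing heart, read 7.07 in wild-type cells and 7.75 in knockout cells (0.68), and Adamts15, which cleaves the proteoglycan versican, read 5.91 and 6.18 (0.27). The proteoglycan-cleaving genes Adamts5 (10.49 and 10.30, -0.19) and Adamts1 (9.51 and 9.33, -0.18) had the lowest differences. None was past 2-fold.

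Of 7 ADAMTS-like genes, whose products resemble ADAMTS proteins but lack the protease domain, 5 were lower, with a median of -0.07. Over all named genes 47.4% were lower. Adamtsl3 read 7.61 and 7.18 (-0.43) and Adamtsl4, a fibrillin-binding member, 8.26 and 7.87 (-0.40), while Adamtsl1 read 6.40 and 6.59 (0.19) and Thsd4 4.29 and 4.43 (0.14). The other astacins differed by at most 0.09 in size. Mep1a read 3.13 and 3.04 (-0.09), Astl 3.55 and 3.64 (0.09) and Mep1b 5.17 and 5.27 (0.09).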
